A study of Mus musculus with 70 samples.

Results

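The transcripts followed here encode 10 subunits of the Polycomb repressive complexes, Ezh2, Ezh1, Eed, Suz12, Jarid2, Bmi1, Ring1, Rnf2, Cbx2 and Cbx8, in cells sorted from the micro-dissected dorsal cortex of developing mice. They were chosen by gene symbol, and all 10 were among the 23078 genes of the expression table and passed the filter on low values. RNA was sequenced from 70 libraries of wild-type C57Bl/6 mice, all labelled female, in 23 groups of 2 to 4 libraries, each group 1 cell type at 1 stage. Newborn neurons (NBN) were represented by 14 libraries at E15.5, E16.5, E17.5, E18.5 and postnatal day 1 (PN), basal progenitors (BP) by 23 libraries at 8 stages from E12.5 to PN, and neural stem cells (NSC) by 33 libraries at 10 stages from E10.5 to PN. NSC were GFP-positive cells of mice carrying Hes5::GFP, a reporter driven by the promoter of a Notch target gene, and both BP and NBN were GFP-positive cells of Tbr2::GFP mice, whose reporter follows the basal progenitor factor Tbr2 (Eomes). The NSC populations therefore differed from the other populations in the reporter line as well as in cell type, and those differences cannot be told apart. The labels do not say how BP were separated from NBN within the Tbr2::GFP cells, nor whether the libraries of a group came from separate animals, and p-values therefore reflect the variation among libraries, which may be technical.

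Polycomb proteins keep developmental genes silent through chromatin. Polycomb repressive complex 2 (PRC2) methylates lysine 27 of histone H3 through Ezh2 or Ezh1, each of which needs Eed and Suz12. Polycomb repressive complex 1 (PRC1) ubiquitinates histone H2A through Ring1 or Rnf2 (RING1B), paired with a PCGF protein such as Bmi1, and its canonical forms carry a CBX protein such as Cbx2 or Cbx8 that binds the mark left by PRC2. In the mouse cortex Polycomb function is known for its part in the timing of neurogenesis and of the later switch of stem cells to glial fates.

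Several libraries went against their labels. All 70 were labelled female, yet 40 had a summed level of Y-linked transcripts above 20 TPM, a transcript abundance scaled per length and to the same total in every library. Replicate 3 of the PN NSC group carried the cell type label of a basal progenitor and the title of an NSC library. Its level of Hes5 was 442 TPM, against 458 to 536 TPM in the other PN NSC libraries and at most 8.21 TPM in PN BP libraries, and it was kept in the NSC group. Hes5 ranged over 1.94 to 7.42 TPM in NBN, 2.33 to 8.21 TPM in BP and 47.4 to 536 TPM in NSC libraries. Eomes ranged over 6.15 to 47.5 TPM in NBN, 248 to 715 TPM in BP and 20.9 to 737 TPM in NSC libraries, so this marker of BP was not restricted to them. Each library had between 16098 and 21210 genes above 0, no library repeated another, and 67 of 70 libraries correlated best with a library of their own group. TPM keeps no record of sequencing depth, so the depth behind each value is unknown.

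Promoter sequences are shown for the PRC2 core genes Ezh2, Eed and Suz12, whose transcripts were lower together in NBN, and for Ezh1, whose transcript was not. Each runs from 250 bases before to 50 bases after the RefSeq start site (build GRCm38.p6), 5′ to 3′ on the gene's strand, with matches to an E2F-type word in capitals. The words searched on both strands were TTTCCCGC, TTTCGCGC, TTTGCCGC and TTTGGCGC for E2F, the family that drives many cell cycle genes, and TTTGAA for the cell cycle homology region (CHR).
Ezh2 (chr6:47594981-47595280, minus strand): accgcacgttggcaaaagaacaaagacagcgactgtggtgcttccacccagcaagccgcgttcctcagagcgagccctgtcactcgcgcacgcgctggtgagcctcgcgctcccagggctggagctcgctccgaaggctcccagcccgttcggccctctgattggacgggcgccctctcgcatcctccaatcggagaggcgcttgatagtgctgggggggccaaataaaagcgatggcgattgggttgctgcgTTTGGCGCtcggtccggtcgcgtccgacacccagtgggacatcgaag
Eed (chr7:89980927-89981226, minus strand): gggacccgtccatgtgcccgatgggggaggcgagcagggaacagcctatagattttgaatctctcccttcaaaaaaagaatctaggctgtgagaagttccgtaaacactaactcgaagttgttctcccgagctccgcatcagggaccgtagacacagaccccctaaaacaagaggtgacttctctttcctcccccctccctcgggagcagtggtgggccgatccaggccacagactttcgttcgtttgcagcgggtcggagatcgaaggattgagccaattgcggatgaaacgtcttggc
Suz12 (chr11:79992856-79993155, plus strand): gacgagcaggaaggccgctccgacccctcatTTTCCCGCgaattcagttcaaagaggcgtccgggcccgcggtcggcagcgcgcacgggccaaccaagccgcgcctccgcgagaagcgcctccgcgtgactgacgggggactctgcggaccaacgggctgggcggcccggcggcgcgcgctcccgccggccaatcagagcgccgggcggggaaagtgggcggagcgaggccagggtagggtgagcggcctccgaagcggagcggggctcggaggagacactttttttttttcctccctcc
Ezh1 (chr11:101226414-101226713, minus strand): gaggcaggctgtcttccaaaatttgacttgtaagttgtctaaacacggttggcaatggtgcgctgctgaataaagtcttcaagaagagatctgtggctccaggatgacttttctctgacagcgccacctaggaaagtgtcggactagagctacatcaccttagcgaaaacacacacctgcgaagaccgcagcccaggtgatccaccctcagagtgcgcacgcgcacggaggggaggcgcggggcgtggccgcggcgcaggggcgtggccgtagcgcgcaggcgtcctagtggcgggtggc
The table held promoters for 9 of the 10 members. An E2F-type word was found in 2 of them, in Ezh2 starting 3 bases after the start site and in Suz12 starting 219 bases before it, and 2.26% of all 32851 mouse promoters of this length held one. The CHR word was present in Eed and Suz12, against 17.9% of all promoters. The Ezh2 promoter held 31 CpG dinucleotides, Eed 17, Suz12 41 and Ezh1 23, against a median of 7 over all promoters. Every E2F-type word contains a CpG, so all promoters, with their lower CpG content, are not a matched background for these genes. Neither promoter of Jarid2, the member with the largest difference between NBN and BP, held an E2F-type or CHR word. A match describes the letters and is not evidence of binding.

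In the GENCODE annotation of GRCm38, Ezh2 spans chr6:47530139-47595341 on the minus strand and Ezh1 spans chr11:101191115-101226463 on the minus strand. Cbx2 (chr11:119022962-119031270, plus strand) and Cbx8 (chr11:119036305-119040969, minus strand) are neighbours separated by 5034 bases. Exons of Rnf2 overlap those of Trmt1l on the opposite strand, and the library kit does not mark strand, so reads from the overlap cannot be assigned to either gene with certainty. Exons of Ezh2, Eed and Suz12 also overlap opposite-strand noncoding genes, and the same limit applies to them.

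Every member was measured in every library. By the median over the 70 libraries, which TPM allows to be compared between genes because it is scaled per transcript length, Ezh2 was the most abundant at 188 TPM, followed by Bmi1 at 98.03 TPM and Rnf2 at 93.6 TPM. Suz12, Jarid2, Cbx2 and Eed had medians of 57.5, 56.7, 41.5 and 41.0 TPM. Ring1, Ezh1 and Cbx8 were the least abundant, with medians of 26.2, 13.8 and 12.4 TPM. The members also differed in how far their group means ranged. Cbx2 ranged most widely, with means of 14.6 TPM in NBN at E17.5 and 117 TPM in NSC at E10.5, an 8.02-fold span. Ezh1 spanned 5.31-fold, Suz12 4.85-fold, Bmi1 4.603-fold, Ezh2 3.67-fold, Jarid2 3.45-fold, Eed 3.41-fold and Cbx8 2.59-fold. The catalytic PRC1 pair varied least, with spans of 1.91-fold for Ring1 and 1.71-fold for Rnf2. When the 23 groups were put in order of their means, most neighbours in the order had overlapping libraries. Libraries of neighbouring groups did not overlap at 5 of 22 steps for Ezh2, 4 for Cbx2, 3 each for Ezh1 and Eed, 2 for Suz12, 1 each for Bmi1, Ring1 and Cbx8, and 0 for Jarid2 and Rnf2.

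**Figure D1:**
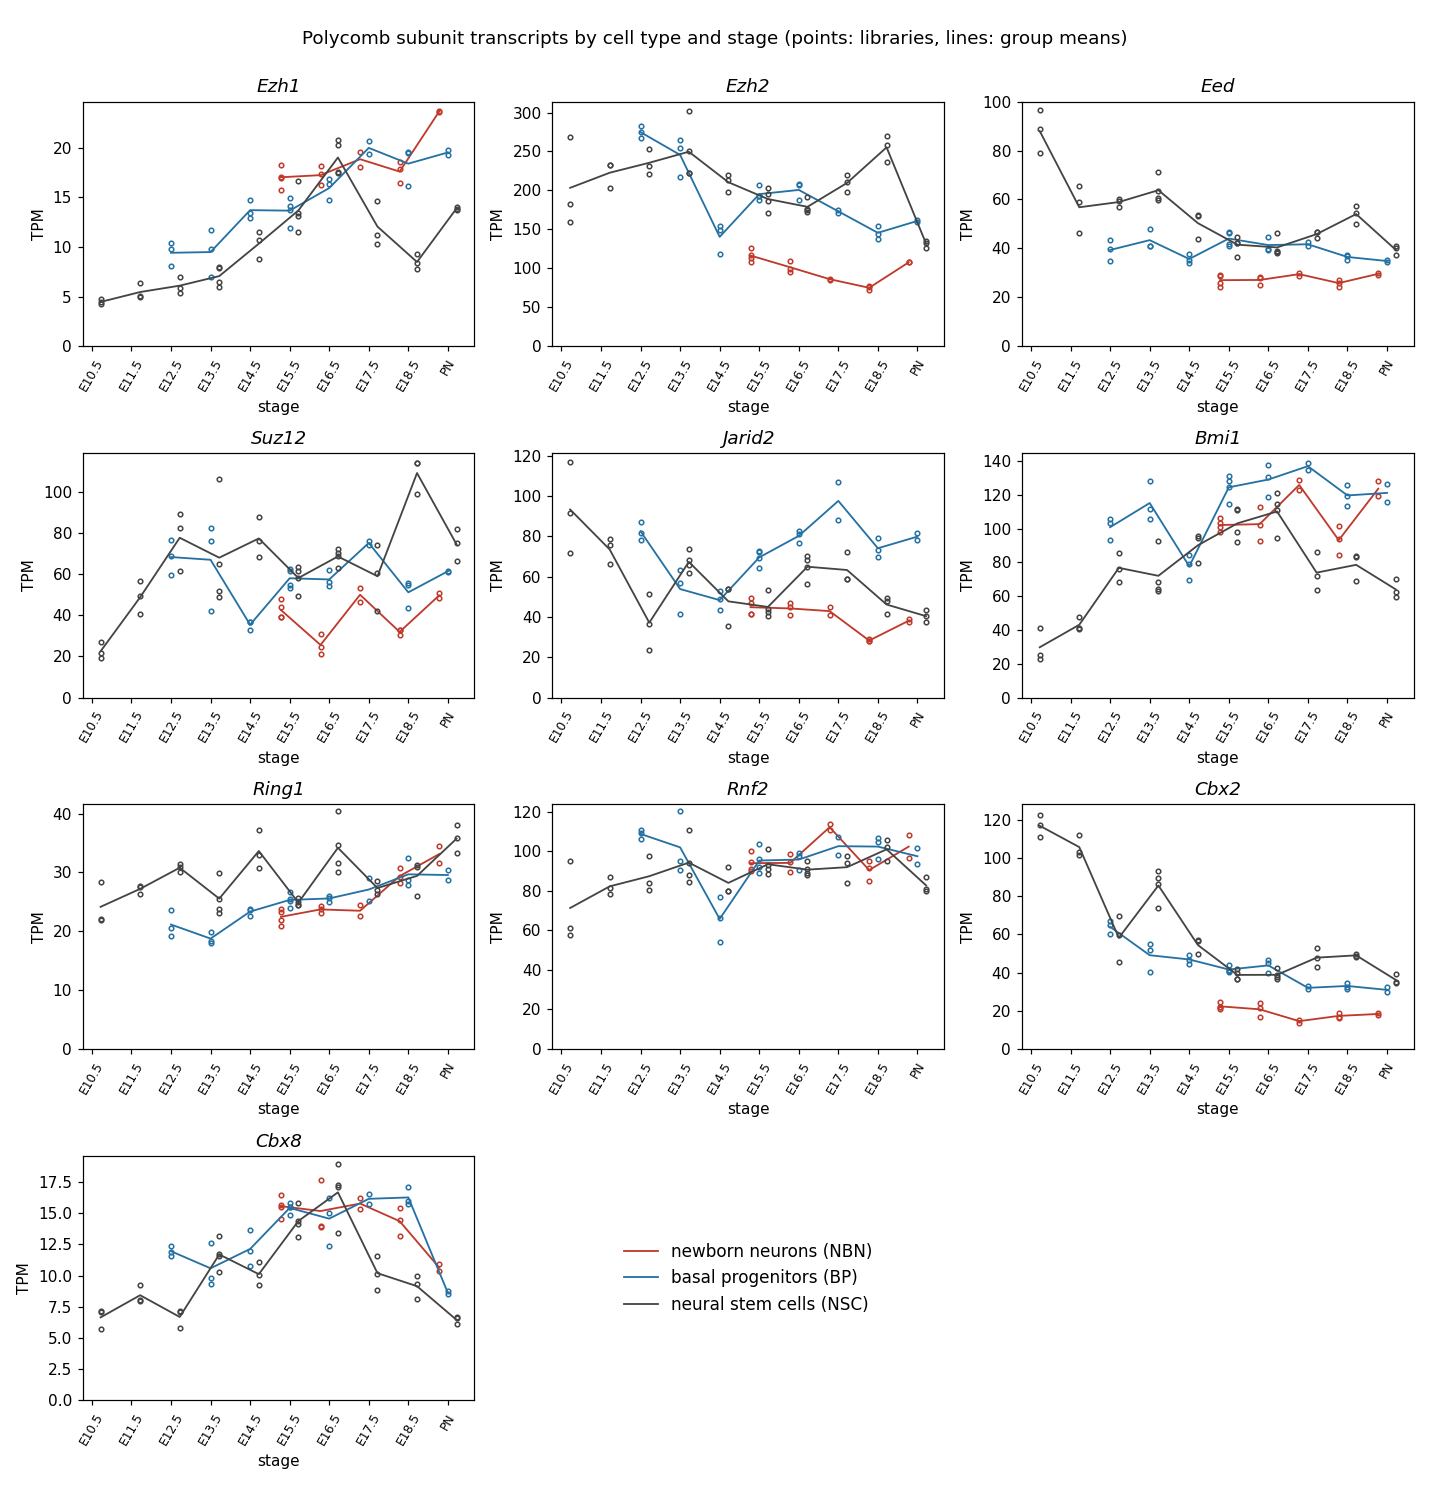
Level of each Polycomb subunit transcript in TPM (vertical axis, from 0) by stage (horizontal axis) in newborn neurons, basal progenitors and neural stem cells; each point is 1 library and each line joins group means. Ezh2, Eed and Cbx2 points of newborn neurons lie below those of both progenitor types at every shared stage, and Ezh1 and Bmi1 of neural stem cells start at 4.45 and 29.7 TPM at E10.5 and reach 19.0 and 110 TPM at E16.5.

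The catalytic subunit Ezh2 had its lowest group mean in NBN at E18.5, 74.9 ± 2.29 TPM (SD, n = 3), and its highest in BP at E12.5, 275 ± 7.34 TPM (SD, n = 3). Its stage series in NSC was uneven, with means of 203, 223, 236 and 250 TPM at E10.5, E11.5, E12.5 and E13.5, and 211, 189, 179, 210, 255 and 131 TPM at the next 6 stages. The libraries at E18.5, 237 to 270 TPM, and at PN, 126.5 to 134.7 TPM, bracket the later NSC range. In BP the E14.5 libraries stood apart, with 118 to 154 TPM between 217 to 265 TPM at E13.5 and 188 to 207 TPM at E15.5. The BP means of Suz12 (35.5 TPM), Bmi1 (77.7 TPM) and Rnf2 (65.8 TPM) were also lowest at E14.5 among the 8 BP stages.

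The alternative catalytic subunit Ezh1 followed another course. In NSC its mean was 4.45 ± 0.24 TPM at E10.5 (SD, n = 3), its lowest of all groups, and means of 5.45, 6.09, 7.06, 10.3, 13.7 and 19.0 TPM followed at the stages to E16.5. Means of 12.1, 8.48 and 13.9 TPM were measured in NSC at E17.5, E18.5 and PN, so the course was not monotonic. In BP the means lay between 9.41 TPM at E12.5 and 19.99 TPM at E17.5, and in NBN between 17.0 TPM at E15.5 and 23.7 TPM at PN. The 2 PN NBN libraries, at 23.6 and 23.7 TPM, were above every other library of the series.

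NBN and BP come from the same reporter line and were compared over the 14 libraries of each at the 5 shared stages. Differences are means of the within-stage differences in log2(TPM + 1), a scale that understates changes of low genes, tested with limma across 15508 genes with Benjamini-Hochberg adjustment and called at an adjusted p below 0.05. In NBN, 6 of the 10 members were lower than in BP, 0 were higher and 4 did not pass, with a median log2 difference of -0.35 over the members and of -0.07 over all genes tested. Over all genes 41.9% were lower and 27.9% higher, so 6 lower members stand against a background in which lower calls are common. In bulk samples a smaller share of cells of a type and less RNA per cell cannot be told apart.

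Among the PRC2 genes the drop in NBN took in the catalytic subunit, both core subunits and the accessory subunit. Ezh2 at E15.5 measured 117, 108, 113 and 127 TPM in NBN libraries, against 192, 193, 188 and 207 TPM in BP libraries. At PN it measured 107.5 and 107.8 TPM in NBN libraries, against 160 and 162 TPM in BP libraries. The NBN libraries were lower at both stages without overlap. Over the 5 stages Ezh2 averaged 98.6 ± 17.0 TPM in NBN and 178 ± 23.4 TPM in BP (SD, n = 14 each), a log2 difference of -0.85 ± 0.05 (SE, adjusted p = 1.73e-21 by limma). Eed, which binds the methylated histone tail, averaged 27.5 ± 2.06 TPM in NBN and 40.2 ± 4.08 TPM in BP, with -0.50 ± 0.05 (adjusted p = 3.03e-14). Suz12, the scaffold of the complex, averaged 38.8 ± 10.2 TPM in NBN and 59.5 ± 8.46 TPM in BP, with -0.63 ± 0.09 (adjusted p = 2.19e-08). The largest member difference was that of Jarid2, which helps to bring PRC2 to its targets. Its libraries ranged over 28.0 to 49.4 TPM in NBN and 64.1 to 107 TPM in BP, which do not overlap, and the log2 difference was -1.01 ± 0.07 (adjusted p = 1.18e-17). Jarid2 was the 1 member past a log2 difference of 1, a size that 9.42% of all genes reached. Ezh1 averaged 18.4 ± 2.44 TPM in NBN and 16.9 ± 2.78 TPM in BP, and its difference of 0.11 ± 0.06 did not pass (adjusted p = 0.113). It passed, as higher in NBN, under median ratio scaling (0.20, adjusted p = 5.83e-04) and quantile normalization (0.23, adjusted p = 1.15e-04).

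Among the PRC1 genes the drop was carried by Cbx2, a CBX subunit of canonical PRC1. At E15.5 it measured 24.6, 21.02, 21.99 and 21.8 TPM in NBN libraries, against 44.1, 41.3, 41.0 and 40.2 TPM in BP libraries. Over the 5 stages it averaged 19.3 ± 3.29 TPM in NBN and 37.4 ± 5.80 TPM in BP, a log2 difference of -0.92 ± 0.05 (adjusted p = 7.44e-23 by limma). Its neighbour Cbx8, the other CBX subunit measured, averaged 14.6 ± 2.03 TPM in NBN and 14.6 ± 2.73 TPM in BP, and its difference of 0.03 ± 0.05 did not pass (adjusted p = 0.654). It passed, as higher in NBN, under median ratio scaling (0.12, adjusted p = 0.02) and quantile normalization (0.17, adjusted p = 0.00199). Bmi1, the PCGF partner of the ubiquitin ligases, was lower in NBN by a small margin, at 107 ± 13.7 TPM in NBN and 126 ± 8.47 TPM in BP (-0.21 ± 0.06, adjusted p = 0.00223). That call was lost under median ratio scaling (-0.11, adjusted p = 0.0831) and over the stages from E17.5 (-0.15, adjusted p = 0.131). The ligases themselves did not pass, with -0.06 ± 0.04 for Ring1 (adjusted p = 0.179) and -0.0043 ± 0.05 for Rnf2 (adjusted p = 0.949). Ring1 passed as lower in NBN over the stages to E16.5 (-0.14, adjusted p = 0.0437) and without PN (-0.12, adjusted p = 0.019). Ezh2, Eed, Suz12, Jarid2 and Cbx2 had every NBN library below every BP library of its stage at all 5 stages, which held for 18.6% of all genes. No member had every NBN library above at all 5 stages, which held for 11.8% of all genes.

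NBN were next set against NSC at the 5 shared stages, with 14 and 17 libraries. Of the members 6 were lower in NBN, 3 were higher and 1 did not pass, against 49.6% lower and 31.4% higher of all genes. The median log2 difference was -0.28 over the members and -0.12 over all genes tested. This comparison and the one with BP share the NBN libraries. Ezh2 averaged 98.6 ± 17.0 TPM in NBN and 192 ± 40.6 TPM in NSC (SD), a log2 difference of -0.96 ± 0.05 (adjusted p = 1.75e-25 by limma). Cbx2 averaged 19.3 ± 3.29 TPM in NBN and 41.8 ± 5.79 TPM in NSC, with -1.14 ± 0.05 (adjusted p = 1.6e-28), the 1 member past a log2 difference of 1, which 19.1% of all genes reached. Suz12 (-0.87 ± 0.09), Eed (-0.64 ± 0.04), Jarid2 (-0.37 ± 0.07) and Ring1 (-0.19 ± 0.04) were lower as well. The Ring1 call was lost under median ratio scaling (-0.06, adjusted p = 0.229) and quantile normalization (-0.02, adjusted p = 0.598), and over the stages from E17.5 (-0.11, adjusted p = 0.0824), and its value was -0.32 over the stages to E16.5. Jarid2 was -0.23 under median ratio scaling. Ezh2, Eed and Cbx2 had every NBN library below every NSC library of its stage at all 5 stages, against 15.2% of all genes, and 0 members had every NBN library above, against 8.29%. Rnf2, at 0.10 ± 0.05 (adjusted p = 0.0633), passed as higher in NBN under median ratio scaling (0.24, adjusted p = 2.23e-05) and quantile normalization (0.13, adjusted p = 0.0115), and without NSC E15.5 replicate 1, NSC E17.5 replicate 1, NBN E18.5 replicate 3 or NBN PN replicate 1 (0.08 to 0.12 over the libraries left out).

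The 3 members higher in NBN than in NSC were Ezh1, Bmi1 and Cbx8. Ezh1 averaged 18.4 ± 2.44 TPM in NBN and 13.8 ± 3.86 TPM in NSC, a log2 difference of 0.50 ± 0.06 (adjusted p = 2.73e-11 by limma). Bmi1 differed by 0.37 ± 0.06 (adjusted p = 1.27e-07) and Cbx8 by 0.36 ± 0.05 (adjusted p = 4.9e-09). All 3 had NBN libraries above NSC libraries without overlap at E17.5, E18.5 and PN, and overlapping libraries at E15.5 and E16.5. The share of all genes with this pattern was not counted, and groups were small at those later stages, with 2 or 3 libraries each. Over the stages to E16.5 alone none of the 3 passed, with 0.09 for Ezh1 (adjusted p = 0.354), -0.05 for Bmi1 (adjusted p = 0.578) and -0.01 for Cbx8 (adjusted p = 0.929). Over the stages from E17.5 the values were 0.77 for Ezh1, 0.65 for Bmi1 and 0.61 for Cbx8. Quantile normalization gave 0.82 for Ezh1 and 0.74 for Cbx8, and Bmi1 was 0.23 without PN. At E18.5 Ezh1 measured 18.6, 16.4 and 17.8 TPM in NBN libraries, against 7.78, 9.31 and 8.35 TPM in NSC libraries.

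BP and NSC were compared at 8 stages with 23 and 27 libraries. Of the members 4 were higher in BP, 5 were lower and 1 did not pass, against 35.5% higher and 40.7% lower of all genes, and their median of -0.02 equalled that of all genes at 2 decimals. None reached a log2 difference of 1, which 8.09% of all genes did. Jarid2 (0.51 ± 0.05, adjusted p = 3.93e-12), Bmi1 (0.47 ± 0.05, adjusted p = 1.6e-13), Ezh1 (0.41 ± 0.04, adjusted p = 9.36e-12) and Cbx8 (0.32 ± 0.04, adjusted p = 3.16e-10 by limma) were higher in BP. Jarid2 averaged 71.8 ± 15.52 TPM in BP and 52.4 ± 13.2 TPM in NSC, and BP libraries were above NSC libraries without overlap at 6 of 8 stages. The same held for Bmi1, which averaged 114.8 ± 18.8 TPM in BP and 84.9 ± 18.2 TPM in NSC. Shares of all genes without overlap at only some of the stages were not counted. Suz12 (-0.31 ± 0.07), Eed (-0.29 ± 0.03), Ring1 (-0.26 ± 0.03), Cbx2 (-0.24 ± 0.04) and Ezh2 (-0.12 ± 0.04) were lower in BP, with adjusted p between 2.69e-11 and 0.00306. Several called values differed by stage: over the stages to E16.5 and from E17.5 they were 0.21 and 0.73 for Ezh1, 0.27 and 0.80 for Bmi1, 0.15 and 0.59 for Cbx8, and -0.12 and -0.45 for Cbx2, each past the threshold in both sets of stages. Cbx8 was also 0.48 under quantile normalization, and Suz12 was -0.20 without E14.5. For Ezh1, BP libraries were above NSC libraries at 5 stages and overlapped them at 2. At E16.5 all were below, with means of 15.9 TPM in BP and 19.0 TPM in NSC. For Cbx8, BP libraries were above at 4 stages and overlapped at 4. The BP means of Cbx8 were lower at E13.5 (10.6 against 11.7 TPM) and E16.5 (14.6 against 16.7 TPM). Ezh2 was also mixed by stage: BP libraries were above NSC libraries at E12.5 and PN, below them at E14.5, E17.5 and E18.5, and overlapped them at 3 stages. Its call was lost over the stages to E16.5 (-0.03, adjusted p = 0.512) and without E14.5 (-0.05, adjusted p = 0.22), and its value was -0.26 over the stages from E17.5. The call of Ring1 was lost over the stages from E17.5 (-0.09, adjusted p = 0.153). No member had every BP library on 1 side of every NSC library at all 8 stages, which held for 0.432% of all genes above and 4.14% below. Rnf2, at 0.07 ± 0.04 (adjusted p = 0.0849), passed as higher in BP without E14.5 (0.13, adjusted p = 0.00317), under median ratio scaling (0.09, adjusted p = 0.0285), and when NSC E12.5 replicate 2, NSC E13.5 replicate 1 or BP E14.5 replicate 3 was left out.

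**Figure D2:**
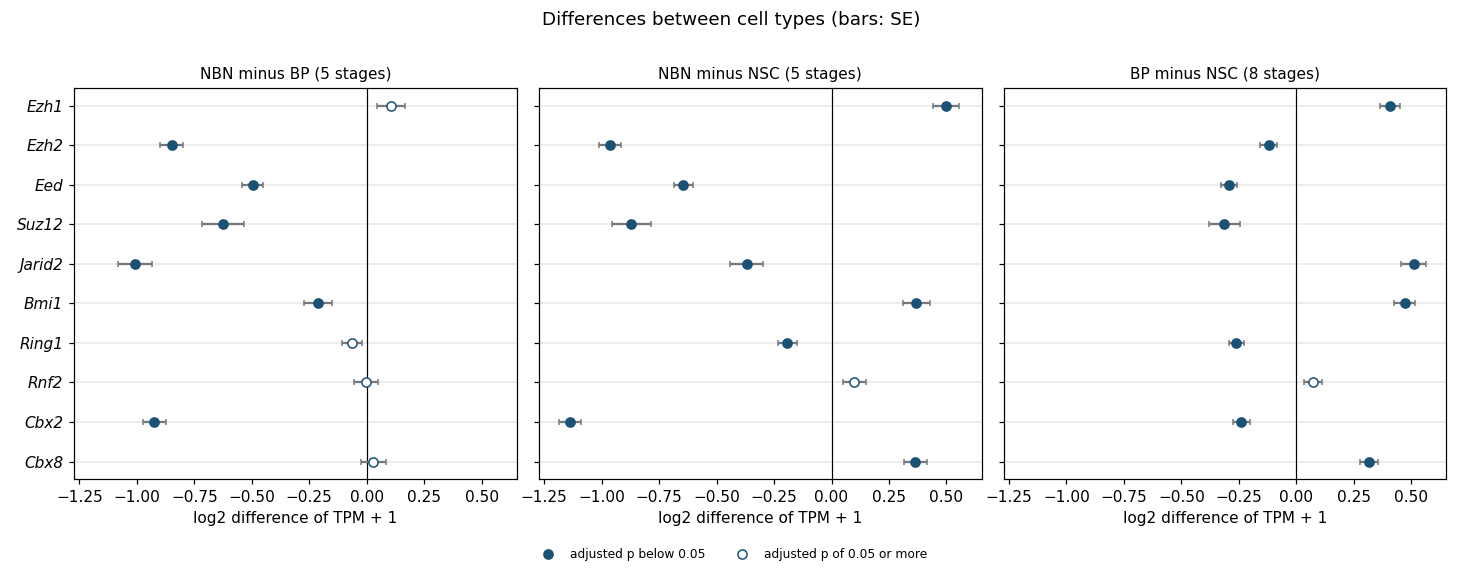
Log2 difference in TPM + 1 (horizontal axis) of each subunit (rows) in newborn neurons against basal progenitors, newborn neurons against neural stem cells and basal progenitors against neural stem cells; points are limma estimates, bars are SE, and filled points passed an adjusted p of 0.05. Ezh2, Cbx2, Eed and Suz12 lie left of 0 in all 3 panels, and Ezh1, Bmi1 and Cbx8 lie right of 0 in both comparisons with neural stem cells.

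Cell composition markers moved with these comparisons. The summed level of 28 cell cycle genes averaged 535 ± 83.1 TPM in NBN, 1352 ± 348 TPM in BP and 3912 ± 1607 TPM in NSC (SD over all libraries of the type), with ranges of 457 to 734, 991 to 2018 and 1671 to 6872 TPM. All 28 genes were lower in NBN than in BP, lower in NBN than in NSC, and lower in BP than in NSC. The summed level of 16 postmitotic neuron genes averaged 7248 ± 1167 TPM in BP and 3632 ± 2160 TPM in NSC, and 15 of the 16 were higher in BP. Microglia genes, all 8 of which were higher in NBN than in BP, summed to 31.3 ± 26.4 TPM in NBN and 5.66 ± 4.61 TPM in BP. The gene counts come from the shared stages, but the sums cover all libraries of a type and so mix stage with cell type. The part of these markers in the member differences was not tested.

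Other Polycomb genes were counted beside all genes tested, of which 41.9% were lower and 27.9% higher in NBN than in BP, 49.6% lower and 31.4% higher in NBN than in NSC, and 40.7% lower and 35.5% higher in BP than in NSC. Of 7 PRC2 partners, 4 were lower and 0 higher in NBN than in BP, 4 were lower and 1 higher in NBN than in NSC, and 4 were lower and 3 higher in BP than in NSC. The PRC2.1 subunit Phf19, which recruits the complex to CpG islands, averaged 0.48 ± 0.27 TPM in NBN and 8.35 ± 4.88 TPM in NSC. Its NBN mean was under the filter of 1 TPM. Phf19 thus entered the fit through groups where it was high, and no test is given for this comparison. The PRC2.2 subunit Aebp2 averaged 12.8 ± 2.73 TPM in NBN and 33.7 ± 9.50 TPM in NSC (log2 difference -1.30 ± 0.06, adjusted p = 1.01e-26 by limma). Phf1, a paralog of Phf19, was higher in NBN, at 33.2 ± 4.20 TPM in NBN and 25.0 ± 9.00 TPM in NSC (0.54 ± 0.05, adjusted p = 4.76e-14).

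Of 22 PRC1 partners, 11 were lower and 3 higher in NBN than in BP, 10 were lower and 7 higher in NBN than in NSC, and 7 were lower and 11 higher in BP than in NSC. Pcgf5, a PCGF protein of noncanonical PRC1, had the largest difference of the partner lists between NBN and NSC, at 1.03 ± 0.46 TPM in NBN and 14.7 ± 8.33 TPM in NSC (-2.82 ± 0.09, adjusted p = 2.56e-33 by limma). Its NBN level lay close to the filter of 1 TPM. Kdm2b, which tethers a noncanonical PRC1 to CpG islands, was higher in BP, at 143 ± 21.8 TPM in BP and 102 ± 28.2 TPM in NSC (0.57 ± 0.04, adjusted p = 9.6e-18). Of 6 genes that remove Polycomb marks, 3 were lower and 0 higher in NBN than in BP, among them Kdm6a and Kdm6b, which encode demethylases of lysine 27 (-0.75 ± 0.11 and -0.43 ± 0.08). Of 10 Trithorax genes and other writers that oppose Polycomb, 7 were lower and 0 higher in NBN than in BP, 6 were lower and 0 higher in NBN than in NSC, and 7 were higher and 0 lower in BP than in NSC. Their largest difference between NBN and BP was that of the methyltransferase gene Kmt2c, -0.53 ± 0.16 (adjusted p = 0.00261).

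Time was examined first in NSC, where 11 mid libraries (E13.5 to E15.5) were set against 6 early libraries (E10.5 and E11.5). Of the members 5 were higher at mid stages, 3 were lower and 2 did not pass, against 47.5% higher and 29.6% lower of all genes, with a median log2 difference of 0.18 over the members and 0.14 over all genes tested. The largest change was that of Bmi1, whose lowest, median and highest libraries were 63.0, 92.5 and 112 TPM at mid stages, against 22.9, 40.8 and 47.5 TPM at early stages. The windows did not overlap, and the log2 difference was 1.28 ± 0.08 (adjusted p = 1.72e-20 by limma), the 1 member past 1, which 19.0% of all genes reached. Cbx2 moved the other way, with 36.7, 56.5 and 93.2 TPM at mid stages, against 102, 112 and 123 TPM at early stages. It fell by 0.96 ± 0.07 on the log2 scale without overlap (adjusted p = 3.57e-19). Its neighbour Cbx8 rose, with 9.26, 11.7 and 15.9 TPM at mid stages, against 5.77, 7.58 and 9.23 TPM at early stages, a difference of 0.61 ± 0.07 (adjusted p = 2.85e-11). Cbx8 was 0.37 under median ratio scaling and 0.24 under quantile normalization, both past the threshold. A window wholly above the other was seen in 17.8% of all genes and one wholly below in 9.72%.

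Of the PRC2 genes, Suz12 rose by 0.98 ± 0.12 on the log2 scale (67.1 ± 17.4 TPM at mid stages, 35.7 ± 15.52 TPM at early stages, adjusted p = 1.04e-10 by limma). Ezh1 rose by 0.89 ± 0.08 (10.4 ± 3.29 TPM at mid stages, 4.95 ± 0.75 TPM at early stages, adjusted p = 7.98e-15). Eed fell by 0.46 ± 0.06 (52.0 ± 10.9 TPM at mid stages, 72.4 ± 19.0 TPM at early stages, adjusted p = 9.57e-10) and Jarid2 by 0.64 ± 0.10 (53.9 ± 12.49 TPM at mid stages, 83.5 ± 18.4 TPM at early stages, adjusted p = 4.09e-08). Eed was -0.72 under median ratio scaling, and Ezh1 was 0.54 under quantile normalization. Ezh2 averaged 217 ± 35.6 TPM at mid and 213 ± 39.5 TPM at early stages and did not pass (0.03 ± 0.07, adjusted p = 0.7). Its value depended on scaling, at -0.24 under median ratio scaling (adjusted p = 7.38e-04 by limma). Leaving out any of 5 of the 17 libraries changed its sign or call, with values of -0.05 to 0.14 over the libraries left out. It passed, at 0.14, without NSC E10.5 replicate 3 (adjusted p = 0.0279), which held 269 TPM against 159 and 182 TPM in the other E10.5 libraries. Rnf2 rose by 0.25 ± 0.07 (adjusted p = 8.84e-04), but was -0.01 under median ratio scaling (adjusted p = 0.9) and 0.09 under quantile normalization (adjusted p = 0.232). Ring1, at 0.11 ± 0.06 (adjusted p = 0.0656), was -0.14 under median ratio scaling (adjusted p = 0.0237) and -0.18 under quantile normalization (adjusted p = 0.00612), so no direction is given for it. It passed as higher without NSC E10.5 replicate 3, NSC E13.5 replicate 2 or 3, or NSC E14.5 replicate 3, with values of 0.08 to 0.17 over the libraries left out.

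Early NSC libraries also differed in other transcripts. Erythroid genes summed to 89.8 ± 71.6 TPM at mid and 4802 ± 2963 TPM at early stages, cell cycle genes to 3076 ± 1246 TPM at mid and 6215 ± 761 TPM at early stages, and postmitotic neuron genes to 5202 ± 1725 TPM at mid and 1602 ± 1274 TPM at early stages. Of the erythroid genes 6 of 7 were lower at mid stages, of the cell cycle genes 27 of 28 were lower, and of the neuron genes 15 of 16 were higher. Their part in the member changes was not tested.

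Late NSC libraries (E17.5, E18.5 and PN, 9 libraries) were then set against the 11 mid libraries. Of the members 3 were higher at late stages, 5 were lower and 2 did not pass, against 45.1% higher and 25.0% lower of all genes, and the medians were -0.12 over the members and 0.12 over all genes tested. None reached a log2 difference of 1, against 11.8% of all genes. Cbx8 fell by 0.45 ± 0.06 on the log2 scale (adjusted p = 5.05e-09 by limma), with 6.09, 8.85 and 11.6 TPM as lowest, median and highest at late stages, against 9.26, 11.7 and 15.9 TPM at mid stages. Cbx2 fell by 0.36 ± 0.06 (adjusted p = 3.57e-07), to 44.4 ± 6.77 TPM at late stages, against 60.1 ± 21.9 TPM at mid stages. Bmi1 fell by 0.28 ± 0.07 (adjusted p = 5.95e-04), to 72.2 ± 9.98 TPM at late stages, against 88.3 ± 17.2 TPM at mid stages. Cbx8 was -0.86 under quantile normalization and -0.28 without PN, and Cbx2 was -0.22 without PN. For each of the 3 the windows overlapped, as they did for all members, against 11.2% of all genes with a late window wholly above and 2.37% wholly below. Jarid2, at -0.09 ± 0.09 (adjusted p = 0.364), passed as lower at late stages under median ratio scaling (-0.20, adjusted p = 0.00752) and quantile normalization (-0.19, adjusted p = 0.0114).

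The remaining late calls in NSC were small. Ezh2 differed by -0.16 ± 0.06 (adjusted p = 0.0117) and Eed by -0.14 ± 0.05 (adjusted p = 0.0132), but without PN the values were 0.11 for Ezh2 (adjusted p = 0.142) and -0.03 for Eed (adjusted p = 0.634). Under median ratio scaling they were -0.27 for Ezh2 and -0.26 for Eed, and Eed was -0.26 under quantile normalization. Ring1 differed by 0.14 ± 0.05 (adjusted p = 0.0117), by 0.27 without E14.5, by 0.03 without PN (adjusted p = 0.654) and by -0.03 under quantile normalization (adjusted p = 0.631). Ezh1 differed by 0.16 ± 0.07 (adjusted p = 0.0442), by 0.01 without PN (adjusted p = 0.903) and by -0.19 under quantile normalization (adjusted p = 0.00401), and leaving out any of 12 of the 20 libraries ended the call (highest adjusted p of 0.164). Suz12 differed by 0.23 ± 0.10 (adjusted p = 0.0495), and leaving out any of 13 of the 20 libraries ended the call (highest adjusted p of 0.163). In late NSC libraries astroglia genes summed to 2068 ± 1345 TPM at late and 84.3 ± 18.9 TPM at mid stages, oligodendrocyte precursor genes to 933 ± 531 TPM at late and 19.7 ± 12.4 TPM at mid stages, and all 28 cell cycle genes were higher at late stages. Of 15 genes that mark stem cells and radial glia 13 were higher, with sums of 11260 ± 2714 TPM at late and 3374 ± 773 TPM at mid stages. Of the 16 postmitotic neuron genes 15 were lower, with sums of 1890 ± 604 TPM at late and 5202 ± 1725 TPM at mid stages. The part of these markers was not tested.

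In BP, 7 late libraries (E17.5, E18.5 and PN) were set against 10 mid libraries (E13.5 to E15.5). Of the members 6 were higher at late stages, 2 were lower and 2 did not pass, against 41.6% higher and 18.4% lower of all genes, and the medians were 0.25 over the members and 0.12 over all genes tested. None reached a log2 difference of 1, against 4.71% of all genes. Ezh1 rose most, with 16.2, 19.5 and 20.7 TPM as lowest, median and highest at late stages, against 6.96, 13.2 and 14.9 TPM at mid stages. The windows did not overlap, and the log2 difference was 0.64 ± 0.08 (adjusted p = 7.52e-10 by limma). Cbx2 fell by 0.50 ± 0.06 without overlap (adjusted p = 3.29e-09), with 29.7, 32.2 and 34.8 TPM at late stages, against 40.2, 44.3 and 54.9 TPM at mid stages. A late window wholly above the mid window was seen in 5.66% of all genes and one wholly below in 2.78%.

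Jarid2 rose by 0.56 ± 0.09 on the log2 scale, to 82.5 ± 12.3 TPM at late stages, against 58.5 ± 11.6 TPM at mid stages (adjusted p = 1.8e-06 by limma). Ring1 rose by 0.35 ± 0.06, to 28.9 ± 2.24 TPM at late stages, against 22.8 ± 3.02 TPM at mid stages (adjusted p = 3.33e-07). Ezh2 fell by 0.24 ± 0.06, to 158 ± 13.4 TPM at late stages, against 194 ± 45.8 TPM at mid stages (adjusted p = 0.00127). Under median ratio scaling Ring1 was 0.22 and Ezh2 was -0.37, and Ring1 was 0.20 under quantile normalization. When the mid window took in E12.5 and E16.5, Ezh2 was -0.37 and Jarid2 was 0.35, and Ezh2 was -0.45 without E14.5. The rises of Bmi1 (0.28 ± 0.08), Suz12 (0.27 ± 0.12) and Rnf2 (0.23 ± 0.07) were lost without the E14.5 libraries, where they were 0.07 for Bmi1 (adjusted p = 0.501), 0.02 for Suz12 (adjusted p = 0.928) and 0.04 for Rnf2 (adjusted p = 0.693). Under median ratio scaling the same 3 also missed the threshold, with 0.14 for Bmi1, 0.14 for Suz12 and 0.10 for Rnf2. Leaving out any of 10 of the 17 libraries ended the Suz12 call (highest adjusted p of 0.166). Eed, at -0.12 ± 0.06 (adjusted p = 0.0808), passed as lower at late stages without E14.5 (-0.21, adjusted p = 0.00424) and under median ratio scaling (-0.25, adjusted p = 6.38e-04), and Cbx8, at 0.07 ± 0.07 (adjusted p = 0.396), passed as higher without PN (0.35, adjusted p = 1.2e-04). Markers of other cells moved with stage in BP as well. All 6 oligodendrocyte precursor genes were higher at late stages, with sums of 10.1 ± 5.92 TPM at late and 1.38 ± 0.30 TPM at mid stages, and 5 of 7 astroglia genes were higher, with 149 ± 80.1 TPM at late and 41.9 ± 12.2 TPM at mid stages. Of the interneuron genes 6 of 9, of the microglia genes 6 of 8 and of the endothelial genes 5 of 7 were higher. Of the neuron genes 9 of 16 were lower, with 6161 ± 707 TPM at late and 7778 ± 675 TPM at mid stages, and of the cell cycle genes 17 of 28 were lower and 3 higher. The part of these markers was not tested.

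In NBN, 7 late libraries (E17.5, E18.5 and PN) were set against 7 mid libraries, which here were E15.5 and E16.5. Of the members 2 were higher at late stages, 3 were lower and 5 did not pass, against 19.2% higher and 15.3% lower of all genes, and the medians were 0.08 over the members and 0.03 over all genes tested. None reached a log2 difference of 1, against 2.33% of all genes, and the windows of every member overlapped, against 3.68% of all genes wholly above and 4.13% wholly below. Ezh2 fell by 0.29 ± 0.07 (adjusted p = 7.72e-04 by limma), with 72.4, 85.2 and 108 TPM as lowest, median and highest at late stages, against 95.6, 109 and 127 TPM at mid stages. Cbx2 fell by 0.34 ± 0.07 (adjusted p = 8.75e-05), to 16.8 ± 1.82 TPM at late stages, against 21.7 ± 2.54 TPM at mid stages. Ring1 rose by 0.29 ± 0.06 (adjusted p = 1.22e-04), to 28.8 ± 4.16 TPM at late stages, against 22.99 ± 1.18 TPM at mid stages. Jarid2 fell by 0.30 ± 0.10 (adjusted p = 0.019), a call that was lost without NBN E17.5 replicate 2 (adjusted p = 0.0528). Suz12 rose by 0.38 ± 0.13 (adjusted p = 0.0145), with group means of 42.6, 25.6, 50.1, 32.0 and 49.8 TPM at E15.5, E16.5, E17.5, E18.5 and PN, which alternate. Its call was lost without PN (0.28, adjusted p = 0.155), without NBN E16.5 replicate 3 and without NBN E17.5 replicate 1 (highest adjusted p of 0.0645). Ezh1 (0.20 ± 0.08, adjusted p = 0.0536) and Cbx8 (-0.18 ± 0.07, adjusted p = 0.0544) lay close to the threshold. Both passed under median ratio scaling (adjusted p = 0.0402 and 0.015), and when NBN E15.5 replicate 1 or NBN E18.5 replicate 2 was left out for Ezh1 and when NBN E15.5 replicate 1, NBN E16.5 replicate 1 or 2, or NBN E18.5 replicate 3 was left out for Cbx8. Ring1 was 0.18 without PN. Microglia genes summed to 50.6 ± 22.8 TPM at late and 11.9 ± 11.1 TPM at mid stages in NBN, with all 8 higher. At late stages 5 of 6 oligodendrocyte precursor genes and 15 of 28 cell cycle genes were also higher and 6 of 16 neuron genes were lower, and the part of these markers was not tested.

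**Figure D3:**
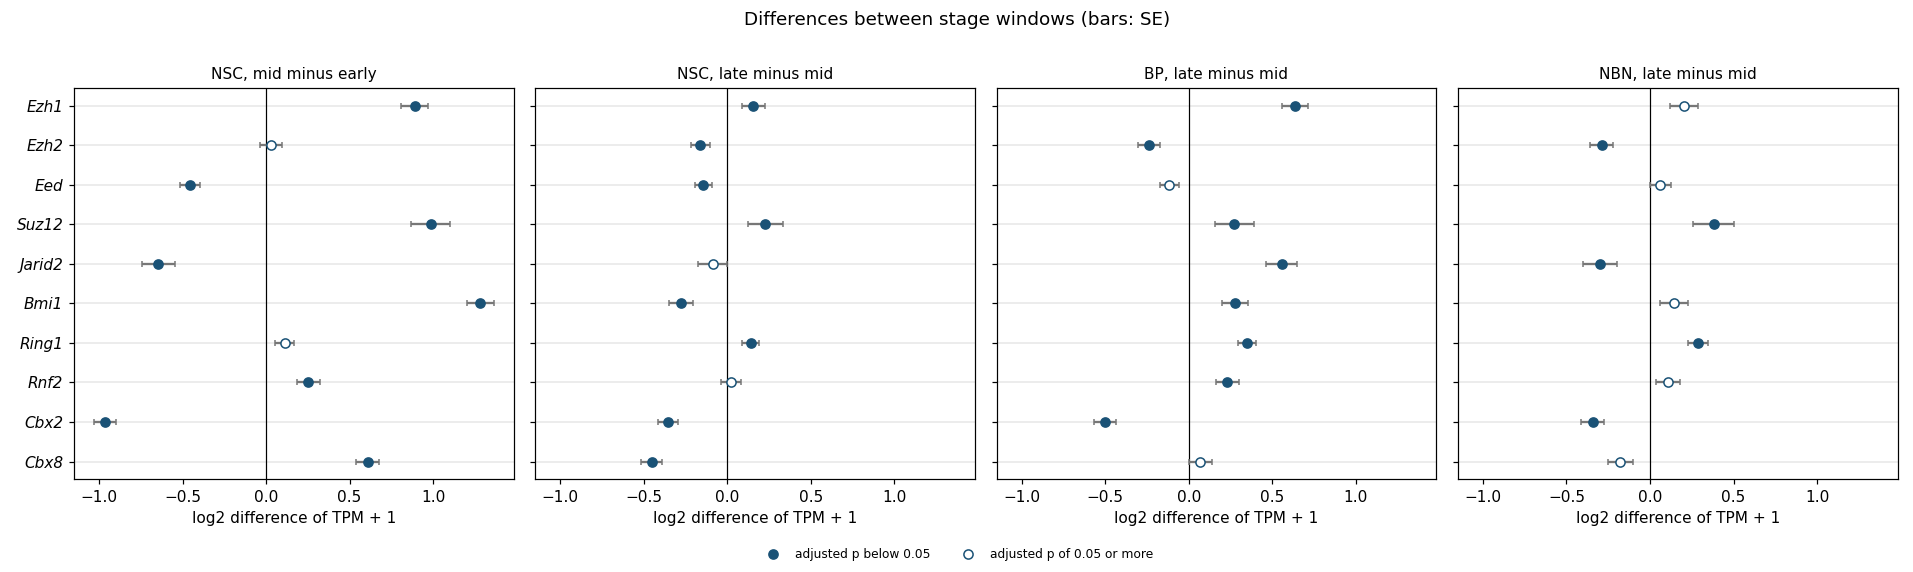
Log2 difference in TPM + 1 (horizontal axis) of each subunit (rows) between stage windows, mid against early in neural stem cells and late against mid in each cell type; points are limma estimates, bars are SE, and filled points passed an adjusted p of 0.05. Cbx2 lies left of 0 in all 4 panels, and Bmi1 has the largest value, 1.28, in neural stem cells at mid against early stages.

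The change between mid and late stages was then compared between the progenitor types with an interaction term, the change in BP minus the change in NSC. Of the members 6 were higher, that is, changed more upward in BP, and 0 were lower, with none past a log2 value of 1 (9.70% of all genes), against 24.7% higher and 27.4% lower of all genes, and the medians were 0.21 over the members and 0.01 over all genes tested. Jarid2 had the largest value, 0.64 ± 0.13 (adjusted p = 2.73e-05 by limma), from 0.56 ± 0.09 in BP and -0.09 ± 0.09 in NSC. Bmi1 followed with 0.56 ± 0.11 (adjusted p = 1.66e-05), from 0.28 in BP and -0.28 in NSC. Cbx8 had 0.52 ± 0.09 (adjusted p = 3.51e-06), from 0.07 in BP and -0.45 in NSC, and Ezh1 had 0.48 ± 0.10 (adjusted p = 1.06e-04), from 0.64 in BP and 0.16 in NSC. Ring1 (0.21 ± 0.07, adjusted p = 0.0139) and Rnf2 (0.21 ± 0.09, adjusted p = 0.0455) were weaker: without E14.5 they were 0.11 (adjusted p = 0.264) and 0.07 (adjusted p = 0.59). The Ring1 call also ended without BP E17.5 replicate 1 (adjusted p = 0.0534), and the Rnf2 call ended when any of 18 of the 37 libraries was left out (highest adjusted p of 0.106). Ezh2 (-0.08 ± 0.09, adjusted p = 0.476) did not pass but did so as lower without PN (-0.35, adjusted p = 0.00203) and without E14.5 (-0.28, adjusted p = 0.0103), and Cbx2 (-0.14 ± 0.09, adjusted p = 0.165) did so without PN (-0.26, adjusted p = 0.0254). When the mid window took in E12.5 and E16.5, both passed as lower, with -0.23 for Ezh2 (adjusted p = 0.0109) and -0.33 for Cbx2 (adjusted p = 3.69e-04), and Jarid2 was 0.39. Bmi1 was 0.33 without E14.5. The alternatives without E14.5 and without PN were chosen after the data were seen. Marker lists had interaction values of their own. Of the cell cycle genes 26 of 28 were lower, as were all 6 oligodendrocyte precursor genes (median of -4.39) and all 7 astroglia genes (median of -2.99), while 11 of 16 neuron genes were higher (median of 0.94). Their part in the member values was not tested.

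Paired subunits that occupy the same position in their complexes were compared within each library, as a description with no test. The ratio of Ezh2 to Ezh1 was 44.6-fold in NSC at E10.5, 9.43-fold at E16.5, 30.1-fold at E18.5 and 9.45-fold at PN. In BP it was 29.4-fold at E12.5, 12.6-fold at E16.5 and 7.93-fold at E18.5, and in NBN it lay between 6.83-fold at E15.5 and 4.26-fold at E18.5. Ezh2 thus exceeded Ezh1 in every group. On the log2 scale the lowest NSC group mean of this ratio, 3.24 at E16.5, was above the highest NBN group mean, 2.77 at E15.5.

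The ratio of Cbx2 to Cbx8 was 17.7-fold in NSC at E10.5, 2.35-fold at E16.5 and 5.61-fold at PN. It was 5.35-fold in BP at E12.5, 1.98-fold at E17.5 and 3.59-fold at PN. In NBN it was 1.43-fold at E15.5, 0.924-fold at E17.5 and 1.72-fold at PN. The ratio of Rnf2 to Ring1 stayed within a narrower band, from 2.32-fold in NSC at PN to 5.40-fold in BP at E13.5. Both genes of each pair were read from the same library, so their values share its scaling.

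**Figure D4:**
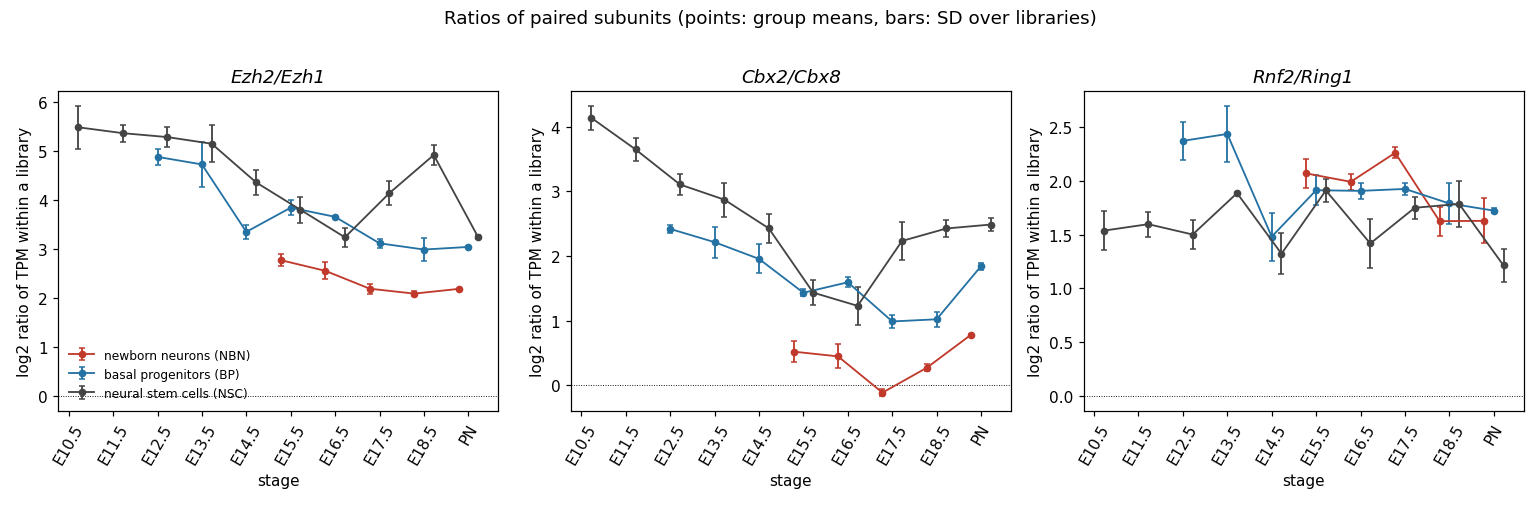
Log2 ratio of TPM within a library (vertical axis) of Ezh2 to Ezh1, Cbx2 to Cbx8 and Rnf2 to Ring1 by stage (horizontal axis) in newborn neurons, basal progenitors and neural stem cells; points are group means and bars are SD over libraries. The ratio of Ezh2 to Ezh1 lies at 2.77 or below in newborn neurons and at 2.99 or above in both progenitor types, and the ratio of Cbx2 to Cbx8 in neural stem cells has its highest mean of 4.14 at E10.5.

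Across the 23 group means, taken as a description since cell type and stage vary together and all members share the libraries, the members fell into contrasting pairs. Pearson's r was 0.91 between Eed and Cbx2, 0.84 between Ezh2 and Cbx2, 0.78 between Ezh2 and Eed, and 0.79 between Ezh1 and Bmi1. It was -0.87 between Ezh1 and Cbx2, -0.85 between Ezh1 and Eed and -0.67 between Ezh1 and Ezh2. Suz12 had weak correlations with Ezh1 (-0.04), Cbx2 (0.14) and Eed (0.21), though 0.55 with Ezh2, and Ezh2 had -0.05 with Rnf2. For Ring1 the values lay between -0.27 with Cbx8 and 0.33 with Suz12. Among 9223 genes with a group mean of at least 20 TPM, the 5 with profiles most like that of Ezh2 over the 23 groups were Ska2 (r = 0.94), Baz1a (0.94), Srsf1 (0.93), Arl6ip6 (0.93) and Dach1 (0.91). The 5 most like Ezh1 were Crtc1 (r = 0.98), Gramd1b (0.98), Zer1 (0.97), Neu1 (0.96) and Kifc2 (0.96).

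Other Polycomb genes were counted by stage in NSC, where 47.5% of all genes were higher and 29.6% lower at mid than at early stages. Between these stages 2 of 7 PRC2 partners were higher and 2 lower, led by Phf1, at 21.9 ± 6.63 TPM at mid stages and 7.02 ± 3.15 TPM at early stages (1.57 ± 0.07, adjusted p = 7.68e-27 by limma). Of 22 PRC1 partners 12 were higher and 3 lower. Among them was Rybp, which binds the ligases in noncanonical PRC1 (1.24 ± 0.08, adjusted p = 3.93e-21). Of the 10 opposing genes 8 were higher and 0 lower, among them Ash1l at 1.24 ± 0.14. Between late and mid stages in NSC, 3 of 7 PRC2 partners were higher and 1 lower, and 7 of 22 PRC1 partners were higher and 8 lower. Over all genes 45.1% were higher and 25.0% lower. Of the PRC1 partners 11 were higher and 5 lower in BP (41.6% and 18.4% of all genes), and 4 and 6 in NBN (19.2% and 15.3%). In NSC Phf19 rose to 12.54 ± 1.91 TPM at late stages, against 3.02 ± 0.90 TPM at mid stages (1.80 ± 0.11, adjusted p = 8.6e-21 by limma). The canonical PRC1 subunit Cbx7 was higher at late stages in all 3 cell types, by 1.34 ± 0.11 in NSC, 0.93 ± 0.12 in BP and 0.62 ± 0.13 in NBN. In NSC that was 11.3 ± 6.43 TPM at late stages, against 3.38 ± 0.47 TPM at mid stages, while the members Cbx2 and Cbx8 were lower.

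Genes known from textbooks as silenced by Polycomb, such as Hox genes and the Cdkn2a and Cdkn2b cell cycle inhibitors, were mostly at or near 0. Of 26 listed loci 25 were matched, 22 of them had a mean under 1 TPM in every group, and the highest level in any single library was 2.70 TPM. Cdkn2b averaged 1.17 ± 0.85 TPM at late and 0.05 ± 0.10 TPM at mid stages in NSC. It read 0 in 28 libraries, and its highest group mean was 1.72 TPM, in NSC at E18.5. The gene thus passed the filter on low values through a group where it was high, and no test is given for it. Of 5 cortical genes that have been reported under Polycomb control, 3 were higher and 1 lower at mid than at early stages in NSC. The shares over all genes were 47.5% and 29.6%. From mid to late stages 1 was higher and 4 lower in NSC (45.1% and 25.0% of all genes). In BP 1 was higher and 3 lower (41.6% and 18.4%), and in NBN 0 and 3 (19.2% and 15.3%). Hmga2 fell by 4.77 ± 0.18 between early and mid NSC (adjusted p = 1.66e-30 by limma). Its libraries held 4.05 to 68.6 TPM at mid stages, against 188 to 620.5 TPM at early stages. Neurog1, which drives cortical neurogenesis, was lower at late than at mid stages by 3.04 ± 0.14 in NSC and 3.16 ± 0.15 in BP. Fezf2, which specifies deep-layer projection neurons, was lower at late than at mid stages by 1.88 ± 0.11 in NSC, 1.72 ± 0.12 in BP and 2.97 ± 0.13 in NBN. Methylation of histone H3 and binding of Polycomb proteins were not measured in these libraries.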

How the data were processed

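RNA of sorted cells was sequenced as single 50-base reads after preparation with the Illumina TruSeq RNA kit v2, per the labels' protocols. The submitters' processing notes name kallisto 0.43.0 and the builds GRCm38.p2 and mm10, with no role given. The authors deposited 1 table of TPM per gene and library, already scaled to a common total per library, so depth is unknown and no counting interval is given. Groups came from the sample titles. Values were tested as log2(TPM + 1) with limma 3.58.1 (R 4.3.3), using a trended variance over all 70 libraries in 23 groups (47 residual degrees of freedom). A gene entered the fit if any group averaged 1 TPM or more, which left 15508 of 23078. P-values were adjusted by Benjamini-Hochberg over those genes in each of 8 contrasts of group means, and the code was tested on simulated data. The members, gene lists and tests were chosen with earlier results of these data known. Named genes are the 10 members, up to 4 genes per other list and comparison with the largest change among those that passed, and the 5 genes most like Ezh2 and Ezh1. 1 gene that the rule would name is not reported here. The reporter genes Hes5 and Eomes were named outside that rule. Replicate numbers were not taken to pair libraries, since the labels do not say that a number marks a shared animal, litter or day. Correlations of same-numbered deviations exceeded 0.1 in 9 of 23 BP with NSC pairs, 8 of 14 NBN with BP pairs and 1 of 14 NBN with NSC pairs, which does not settle whether libraries are paired. With 2 libraries per group the deviations mirror each other, so NBN with BP gave 1 value per stage at E17.5 (0.124) and PN (0.363), each counted for both pairs. Alternatives were other pseudocounts, scalings, filters, windows, fits and left-out libraries; 3 more (without E14.5, without PN, and Y-linked level as covariate) were added after the data were seen. Promoters are from RefSeq (GRCm38.p6) and coordinates from GENCODE M21.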

Additional observations from a re-analysis of the deposited data

Results flagged for a closer look

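In the NSC group at E16.5, replicate 4 had an Eed level of 46.1 TPM, far from the other 3 libraries at 38.2 to 38.8 TPM. Chance gives such a gap in about 1 of 20 groups, and 1 was found in the 50 combinations of member and 4-library group that could be examined. The mid to late change differed between BP and NSC, by the interaction test, for 6 members. Over all genes 24.7% passed as higher and 27.4% as lower, so such a difference was common. The BP change minus the NSC change was 0.48 for Ezh1, 0.64 for Jarid2, 0.56 for Bmi1, 0.21 for Ring1 (0.2119), 0.21 for Rnf2 (0.2114) and 0.52 for Cbx8 on the log2 scale. The calls of Ring1 and Rnf2 were lost without E14.5.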

How the results depend on the processing

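Of 940 member values over 14 settings, 825 kept their direction and side of the threshold, 49 lost the call, 39 gained one and 27 changed sign; of 2140 values with 1 library left out, 2050 were kept and 15 changed sign. Under median ratio scaling the signs of Ezh2 (-0.2351), Ring1 (-0.1437) and Rnf2 (-0.009956) in NSC mid against early, Ring1 (0.0335) and Rnf2 (0.0964) in NBN against BP, Rnf2 in NSC late against mid (-0.09295) and Cbx8 in BP late against mid (-0.05752) changed. Under quantile normalization they were Ring1 (-0.177) and Ezh2 (-0.01362) in NSC mid against early, Ezh1 (-0.1925), Ring1 (-0.02894) and Rnf2 (-0.02752) in NSC late against mid, Ring1 (0.04601) and Rnf2 (0.02603) in NBN against BP and Cbx8 in BP late against mid (-0.1292). Over the stages to E16.5 they were Bmi1 (-0.05463) and Cbx8 (-0.008278) in NBN against NSC, over those from E17.5 Rnf2 in NBN against BP (0.007589), and with the wider mid window Suz12 in the interaction (-0.01624). Without PN they were Ezh2 (0.109) and Jarid2 (0.04868) in NSC late against mid, Cbx8 in NBN against BP (-0.03383) and Eed in the interaction (-0.02833). Without E14.5 they were Ring1 in NSC mid against early (-0.02213), Rnf2 in NSC late against mid (-0.03192), and Eed (-0.05494) and Suz12 (-0.3186) in the interaction. With 1 library left out, sign changes occurred for Rnf2 in NBN against BP, Ezh2 in NSC mid against early and Suz12 in the interaction. Over all libraries left out, with or without a sign change, their values ranged over -0.02103 to 0.01248, -0.05025 to 0.1378 and -0.05297 to 0.1077. The cause of these changes was not tested. Members passing in NBN late against mid numbered 9 when only the libraries compared entered the fit (5 in the fit of all libraries). Ezh1 (0.20, adjusted p = 0.00408 by limma), Bmi1 (0.14, adjusted p = 0.0259) and Rnf2 (0.11, adjusted p = 0.0412) were added as higher. Cbx8 (-0.18, adjusted p = 0.033) was added as lower. In NSC late against mid, members passing numbered 5 when the mid window took in E12.5 and E16.5 and 3 without PN, against 8. Shares of all genes passing are not given beside these counts. All genes passing in NBN late against mid numbered 3309 without PN, against 5350. Scaling moved the share of higher calls among all genes passing: under median ratio scaling it was 51.7% for NBN against BP (40% as deposited), 49.9% for NBN against NSC (38.8%), 46.3% for NSC mid against early (61.7%), 52.5% for NSC late against mid (64.4%) and 50.8% for BP late against mid (69.3%), and under quantile normalization it was 56.9% for BP against NSC (46.6%), 53.7% for NBN against NSC, 46.7% for NSC mid against early, 42.6% for NSC late against mid and 47.6% for BP late against mid. The median of all genes moved from the deposited scale to median ratio scaling by over 0.1 for NBN against NSC (-0.12 and -0.01), NSC mid against early (0.14 and -0.05) and BP late against mid (0.12 and 0.02), and to quantile normalization for NBN against NSC (-0.12 and 0.04), NSC mid against early (0.14 and -0.04), NSC late against mid (0.12 and -0.07) and BP late against mid (0.12 and -0.01). The replicate number was also entered as a covariate, with an effect per number shared by all groups. Suz12 in BP late against mid (0.24, adjusted p = 0.0586 by limma) and Rnf2 in the interaction (0.20, adjusted p = 0.0646) then lost their calls. Cbx8 in NBN late against mid passed (-0.19, adjusted p = 0.0412), and no other member call changed. Because the effect is shared by all stages and cell types, this fit cannot show whether same-numbered libraries of a stage are paired. The numbers were not taken to pair the libraries, since the labels do not say that they do. Correlations of same-numbered deviations lay between -0.234 and 0.446 for BP with NSC, -0.234 and 0.462 for NBN with BP, and -0.235 and 0.251 for NBN with NSC, which does not settle the question. With 1 library left out, members passing ranged over 6 to 6 in NBN against BP, 9 to 10 in NBN against NSC and in BP against NSC, 8 to 10 in NSC mid against early, 6 to 8 in NSC late against mid, 7 to 8 in BP late against mid, 4 to 7 in NBN late against mid and 4 to 6 in the interaction.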
